A study of Rattus norvegicus with 4 samples.

Results

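Solute carriers are the membrane proteins whose gene symbols begin with Slc, and the set described here holds those detected in cultured rat aortic smooth muscle cells. The array carried 422 probe sets with a single gene symbol of that kind, for 308 genes, and a further 2 whose symbol was shared with other genes were not used. Members were selected on their own mean intensity: 178 probe sets had a mean of at least 100 over the 4 arrays, and 13 of these, of 10 genes, were left out by name. The remaining 165 probe sets, of 127 genes, made up the set, out of 31099 probe sets in all. The other 244 solute carrier probe sets lay below a mean of 100. Just inside that limit were Slc38a6 at 104.16, Slc19a1 at 104.33 and Slc35a3 at 104.49, and just outside it were Slc45a4 at 98.5, Slc37a1 at 96.5 and Slc16a6 at 95.6.

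The cells came from the aorta of Sprague-Dawley rats and carried no stated transgene or deletion. They were kept in medium with 10% serum for 5 days and in serum-free medium for 3 days, and then received either interleukin-1 beta (IL-1b, an inflammatory cytokine) at 2.5 ng/mL or its vehicle, 0.1% bovine serum albumin, for 24 h. Each group had 2 single-colour Affymetrix arrays of total RNA, and the comparison asks which transcripts differ after exposure to the cytokine. The labels do not say whether the arrays of a group came from separate cultures, and the p-values below therefore reflect just the spread among these arrays, possibly a technical one. In such bulk RNA, fewer cells of a type and less RNA per cell cannot be told apart.

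Solute carriers move amino acids, sugars, ions, metals, nucleosides and metabolites across the plasma membrane and the membranes of organelles, as uniporters, exchangers or cotransporters that use the gradient of another solute. In vascular smooth muscle, sodium-calcium exchangers help to clear calcium after contraction, nucleoside transporters take up adenosine, and amino acid and metal carriers feed protein synthesis, redox enzymes and the mitochondria. Many carriers act with partners, such as the sodium pump that maintains the sodium gradient, the proton pump of lysosomes, and accessory glycoproteins that bring a carrier to the surface.

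One array, IL-1b replicate 1, was unlike the rest. Its background, taken as the 95th percentile of 27 probe sets for Bacillus subtilis transcripts, was 76.7, while vehicle replicates 1 and 2 had 29.4 and 26.9 and the second IL-1b array had 18.8. Its 18 hybridisation controls were at 3.53 times the vehicle mean. Within the set, 14 of 165 probe sets differed over 2-fold between the IL-1b arrays, of which 8 were higher and 6 lower on replicate 1, while 1 of 165 did so between the vehicle arrays. Among markers of the labelled cell type, the summed intensity of 8 smooth muscle genes was 33220 and 34100 in vehicle and 11690 and 8907 in IL-1b, and 7 of the 8 fell. The part that either difference plays in the results below was not tested.

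**Figure D1:**
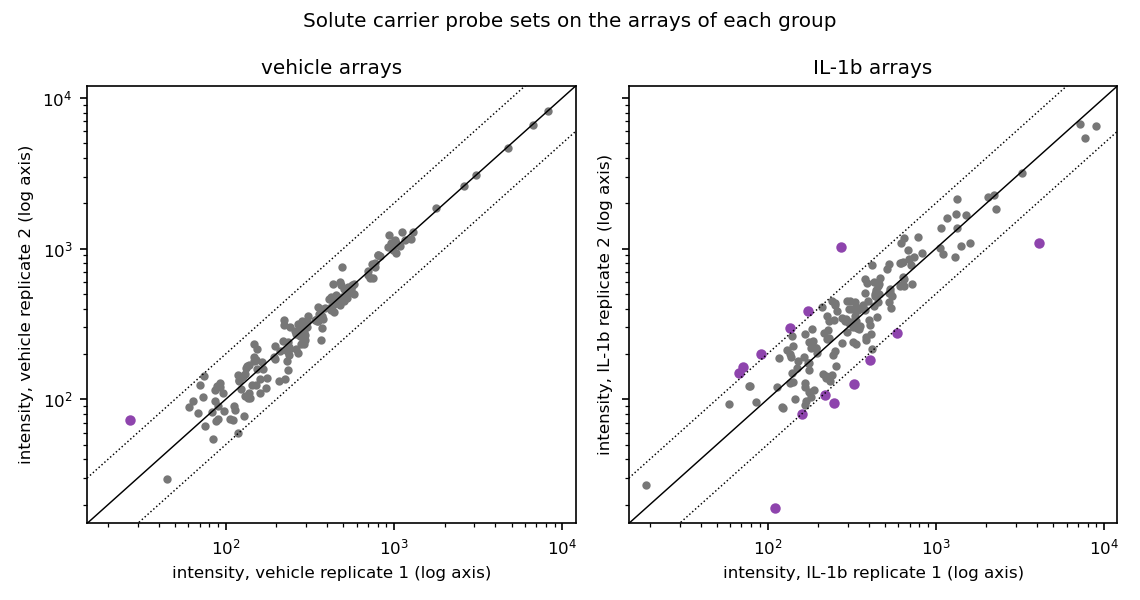
Intensity of the 165 solute carrier probe sets on replicate 1 (x axis) against replicate 2 (y axis) of the vehicle group (left) and the IL-1b group (right), both on log axes. The solid line marks equal values and the dotted lines a 2-fold difference; purple points lie outside them, 1 in the vehicle panel and 14 in the IL-1b panel.

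Transcripts of 19 of the 127 solute carrier genes rose with IL-1b and those of 9 fell, each gene taken by its brightest probe set (limma, Benjamini-Hochberg adjusted p below 0.05 over all 18625 probe sets tested). That is 15% higher and 7.09% lower, beside 8.57% higher and 9.67% lower among the 8207 genes with a mean of at least 100. By probe set, 25 of 165 were higher and 9 lower, beside 8.43% and 9.49% of the 13515 probe sets with such a mean and 6.32% and 7.11% of all probe sets tested. The median log2 fold change of the 127 genes was 0.17, and that of all probe sets tested was 0.015. Among the called genes 14 rose and 7 fell by at least 2-fold, and in all 28 of them the arrays of the groups did not overlap. They did not overlap in 85 of the 127 genes (66.9%), a share near the 64.7% of all genes with a mean of at least 100. Of the 99 genes that did not pass, 69 had a log2 fold change below 0.5 in size. A gene with one group below 100 could be a member only through the other: this held for 14 genes, 10 low in vehicle and 4 low in IL-1b, and the 113 genes without them held 17 that rose and 8 that fell.

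These counts moved with the arrays and with the scaling. A fit without 1 array had a single array in that group, so its spread came from the other group's pair alone. Such a fit says nothing of the spread in the group left with 1 array, and this holds for all of them below. Without vehicle replicate 1 there were 11 higher and 6 lower genes, beside 5.29% and 5.48% of all genes with a mean of at least 100, and without vehicle replicate 2 there were 13 and 6, beside 5.30% and 5.12%. Without IL-1b replicate 1 there were 38 higher and 16 lower, beside 18.4% and 20.3% of such genes, and without IL-1b replicate 2 there were 46 and 29, beside 24.1% and 31.2%. Centring each array on its median shifted the median of all probe sets tested from 0.015 to -0.189 and gave 7 higher and 7 lower genes, 6 of the 7 lower being among the 9. Of the members' calls 50% were then higher, against 67.9% before, and of the calls over all genes with a mean of at least 100 the share went from 47.0% to 35.7% (3.84% of those genes higher and 6.91% lower). No called gene changed direction under the alternatives run, but most of them could not have shown such a change. Another filter, trend, prior or block leaves the fold change as it was. Where the groups do not overlap, leaving out 1 array cannot turn its sign. Across 13 alternative fits, 8 genes kept their call in each: Slc29a1, Slc11a2, Slc44a1 and Slc43a2 rose, and Slc24a3, Slc5a3, Slc8a1 and Slc37a4 fell. The other 20 genes did not pass in at least 1 of the fits, mostly those with median centring (adjusted p of the lost calls 0.051 to 0.46), without the intensity trend (0.05 to 0.16), or without a vehicle array (0.074 to 0.34).

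**Figure D2:**
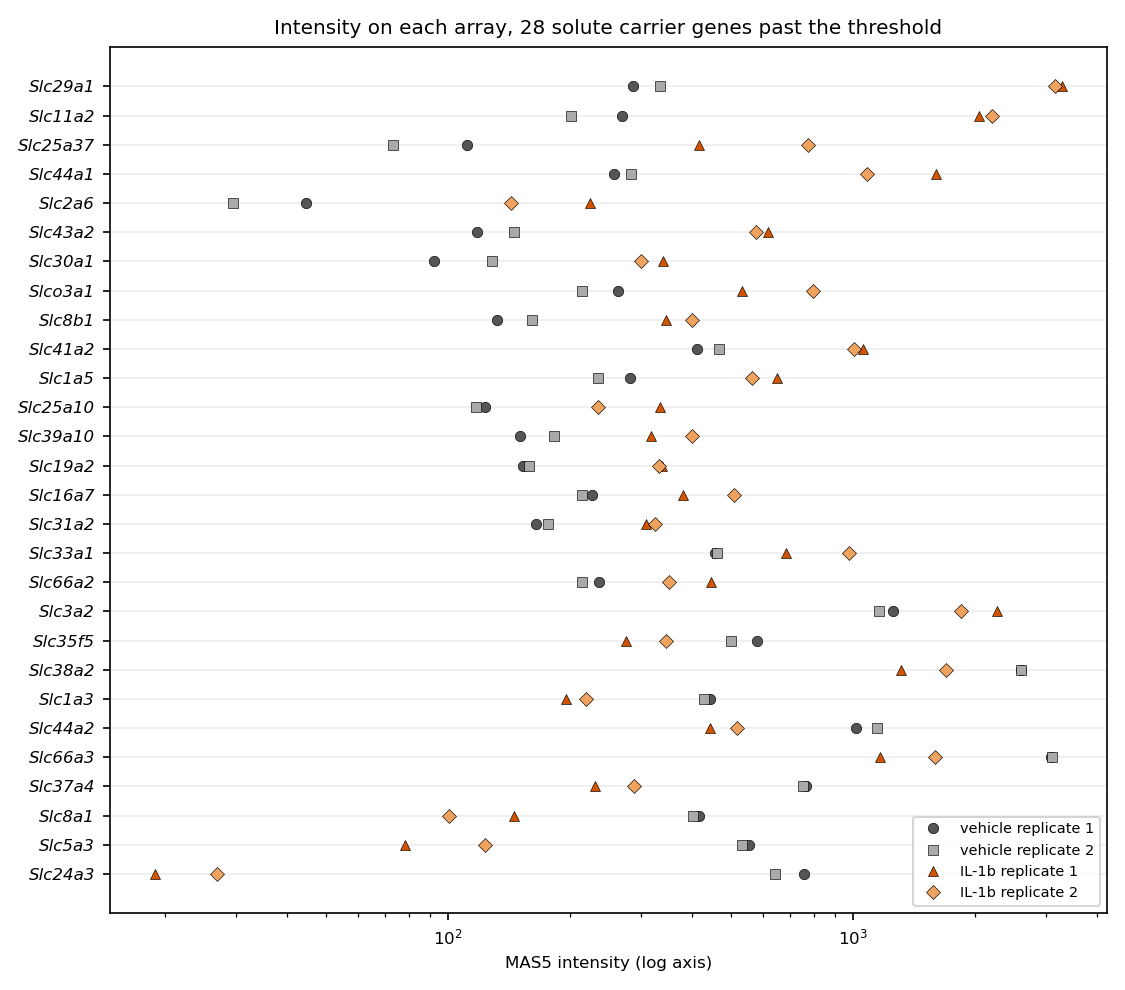
MAS5 intensity (x axis, log scale) of the 28 solute carrier genes past the threshold (y axis) on each of the 4 arrays, by the brightest probe set of each gene and ordered by log2 fold change. Grey symbols are the vehicle arrays and orange symbols the IL-1b arrays; the groups do not overlap in any of the 28, from Slc29a1 at 286 and 333 against 3271 and 3157 to Slc24a3 at 755 and 641 against 18.9 and 26.9.

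The sequences before the start sites of 5 of these genes that kept their call or had several motif matches are shown first, as the stretch of promoter that a change in transcript level would be set against. Each is the 250 bases before the annotated start in RefSeq's GRCr8 assembly, 5′ to 3′ on the strand of the gene, with capitals for any match to the NF-kB consensus or to the metal response element core (TGCACNC or TGCGCNC, on both strands). NF-kB is the family of transcription factors that IL-1 receptors activate, and the metal response element is the site of the zinc-sensing factor MTF1. Slc29a1 lies at chr9:22896849-22897098 on the plus strand, Slc11a2 at chr7:133417789-133418038 on the minus strand, Slc43a2 at chr10:60874588-60874837 on the plus strand, Slc30a1 at chr13:106021769-106022018 on the plus strand, and Slc5a3 at chr11:44799537-44799786 on the plus strand.
Slc29a1: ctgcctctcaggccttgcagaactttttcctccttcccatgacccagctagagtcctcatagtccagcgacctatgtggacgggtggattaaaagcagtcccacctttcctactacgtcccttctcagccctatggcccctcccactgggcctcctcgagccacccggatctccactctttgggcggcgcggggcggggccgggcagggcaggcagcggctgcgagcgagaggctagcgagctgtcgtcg
Slc11a2: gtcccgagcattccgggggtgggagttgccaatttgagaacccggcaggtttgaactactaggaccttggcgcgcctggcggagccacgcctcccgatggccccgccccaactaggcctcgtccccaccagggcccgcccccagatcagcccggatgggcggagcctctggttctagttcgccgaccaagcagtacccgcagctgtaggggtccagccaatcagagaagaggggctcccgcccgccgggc
Slc43a2: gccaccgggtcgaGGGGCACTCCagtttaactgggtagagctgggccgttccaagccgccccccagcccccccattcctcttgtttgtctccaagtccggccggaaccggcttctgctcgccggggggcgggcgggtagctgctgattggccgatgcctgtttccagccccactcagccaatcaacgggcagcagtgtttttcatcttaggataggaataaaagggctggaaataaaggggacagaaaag
Slc30a1: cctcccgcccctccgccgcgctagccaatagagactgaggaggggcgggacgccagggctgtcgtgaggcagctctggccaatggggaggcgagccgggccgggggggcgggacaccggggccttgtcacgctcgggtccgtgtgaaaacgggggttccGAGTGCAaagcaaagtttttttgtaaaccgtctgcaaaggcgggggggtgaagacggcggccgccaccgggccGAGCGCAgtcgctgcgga
Slc5a3: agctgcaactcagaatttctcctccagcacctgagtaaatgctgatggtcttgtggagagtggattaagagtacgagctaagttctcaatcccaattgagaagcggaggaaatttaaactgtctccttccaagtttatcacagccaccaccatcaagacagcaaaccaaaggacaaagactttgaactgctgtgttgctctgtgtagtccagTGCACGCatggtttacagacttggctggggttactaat
An NF-kB consensus lay at positions -237 to -228 of Slc43a2, counted from the start site. Metal response element cores lay at -91 to -85 and -18 to -12 of Slc30a1, and at -38 to -32 of Slc5a3, which fell. Slc24a3 and Slc66a3, which fell and are not printed, had several such cores. RefSeq windows were found for 107 of the 127 genes. The NF-kB consensus occurred in 2 of 16 genes that rose, 1 of 9 that fell and 8 of 82 that did not pass, beside 6.33% of 33469 rat windows of the same length. The metal response element core occurred in 6 of 16, 4 of 9 and 31 of 82, beside 20.6%. A match describes the letters only.

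The nucleoside transporter Slc29a1 (ENT1, the equilibrative carrier of adenosine) had the largest increase in the set. Its intensity was 286 (replicate 1) and 333 (replicate 2) in vehicle, and 3271 (replicate 1) and 3157 (replicate 2) in IL-1b, the order kept for all values below. Both IL-1b arrays were about an order of magnitude above both vehicle arrays (log2 fold change 3.36 ± 0.15 (SE), 10.3-fold, adjusted p = 5.1e-05). Its class held 18 genes that carry nucleosides or the nucleotide sugars used for glycosylation in the Golgi apparatus, and the other 17 had log2 fold changes from -0.79 to 0.53 with a median of 0.02. Slc35f5, a member of the nucleotide sugar transporter family whose substrate is not settled, read 580 and 501 in vehicle and 275 and 345 in IL-1b, and fell by 0.79 ± 0.19 on the log2 scale (adjusted p = 0.0375). Its call did not hold without vehicle replicate 1 (log2 fold change -0.69) or vehicle replicate 2 (-0.9). More genes of the class passed with 1 IL-1b array left out, as among all genes with a mean of at least 100. The brightest gene, Slc35b1, read 1781.5 and 1860 in vehicle and 2230 and 2256.5 in IL-1b, which did not pass (0.30, adjusted p = 0.21).

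Among 21 metal carriers, 5 rose and none fell by limma. At an unadjusted p below 0.05, 9 were higher and 0 lower, beside 15.8% higher and 18.2% lower among all genes with a mean of at least 100, and the class median was 0.50. Slc11a2 (DMT1, which imports ferrous iron and other divalent metals and releases iron from endosomes) read 268 and 202 in vehicle and 2041 and 2200 in IL-1b. The groups were far apart, with a log2 fold change of 3.16 ± 0.18 (8.92-fold, adjusted p = 1.24e-04), and a further probe set read 166, 158, 788 and 1195 (2.54, adjusted p = 6.2e-04). The zinc exporter Slc30a1, whose promoter is printed above, read 92.5 and 129 in vehicle and 338 and 299 in IL-1b, a rise of 1.5 ± 0.26 (adjusted p = 0.0107). Slc39a10, a zinc importer, read 151 and 183 against 317 and 400 (1.07 ± 0.23, adjusted p = 0.0237). So a zinc exporter and a zinc importer both rose.

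Slc41a2, a magnesium carrier, read 410 and 466 in vehicle and 1060 and 1002 in IL-1b (1.23 ± 0.15, adjusted p = 0.0027). Its limma call did not hold with median centring (1.02, adjusted p = 0.129), and its other probe set did not pass (1.04). Slc31a2, a relative of the copper importer found on endosomes and lysosomes, read 165 and 177 against 308 and 324 (0.87 ± 0.20, adjusted p = 0.0347), and its other probe set did not pass (1.06, adjusted p = 0.063). Slc39a1, the brightest metal carrier and a zinc importer, read 1031 and 1097 in vehicle, and 4093 and 1095.5 in IL-1b. The array with the raised background alone was high, and the gene did not pass (0.99, adjusted p = 0.28). For Slc39a6, a further zinc importer named after its values were seen, the brightest probe set read 566, 567, 637 and 816 and did not pass (0.35, adjusted p = 0.25), whereas another read 120 and 132 against 350 and 293 (1.31, adjusted p = 0.011). Fewer metal carriers passed without 1 vehicle array and more without 1 IL-1b array, as among all genes with a mean of at least 100. With the replicate number as a block 8 rose and 1 fell, beside 10.1% and 12.3% of all genes with a mean of at least 100. Slc31a2 did not pass without either vehicle array (adjusted p = 0.27 and 0.20), nor Slc39a10 without vehicle replicate 1 (0.15).

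All 3 calcium exchangers passed, and they did not move together. Slc24a3 (NCKX3, which exports calcium in exchange for sodium at the cost of the potassium gradient) had the largest decrease of the set, with 755 and 641 in vehicle and 18.9 and 26.9 in IL-1b. It was below background on the first IL-1b array and above it on the second, so that its level was measured on 1 of the 2 IL-1b arrays, and it was a member only through the vehicle arrays (log2 fold change -4.64 ± 0.30, adjusted p = 1.76e-04). Slc8a1 (NCX1, the main sodium-calcium exchanger of the plasma membrane) read 416 and 401 against 145 and 100.35, and fell by 1.71 ± 0.25 on the log2 scale (adjusted p = 0.0051). Both plasma membrane exchangers were thus lower on both IL-1b arrays. Slc8b1 (NCLX, the sodium-calcium exchanger of the inner mitochondrial membrane) read 132 and 161 in vehicle and 345 and 401 in IL-1b, a rise of 1.32 ± 0.22 (adjusted p = 0.0094). Its limma call did not hold with median centring (1.11, adjusted p = 0.0936) or without the intensity trend (adjusted p = 0.0541), whereas Slc24a3 and Slc8a1 passed in both.

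Of the 9 carriers of sodium, potassium, chloride, bicarbonate and protons, none passed in either direction by limma, and none had an unadjusted p below 0.05. Among all genes with a mean of at least 100, 8.57% passed as higher and 9.67% as lower. At an unadjusted p below 0.05 these shares were 15.8% and 18.2%, so that 0 of 9 genes says little. Their median log2 fold change was 0.01 and they ranged from -0.84 to 0.73. Slc4a2, the brightest (an anion exchanger of chloride and bicarbonate), read 697 and 714 in vehicle and 714 and 780 in IL-1b (0.08 ± 0.15, adjusted p = 0.76). Slc12a2 (NKCC1, the sodium-potassium-chloride cotransporter), named after its values were seen, read 716 and 640 against 612 and 805 (0.05, adjusted p = 0.88). In both, the IL-1b arrays lay close to or astride the vehicle arrays. Without IL-1b replicate 2 some of the 9 passed, in both directions. More of all genes with a mean of at least 100 passed in that fit as well.

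Of 15 amino acid carriers, 3 rose and 2 fell (20.0% and 13.3%), and the class median was 0.55. Among all genes with a mean of at least 100, 8.57% rose and 9.67% fell. At an unadjusted limma p below 0.05, 6 of the 15 were higher and 4 lower, beside 15.8% and 18.2% of all such genes. Slc43a2 (LAT4, a sodium-independent carrier of large neutral amino acids) read 118 and 145 in vehicle and 617 and 574 in IL-1b (2.14 ± 0.20, adjusted p = 7.85e-04). Its other probe set gave 92.9 and 121 against 389 and 589 (2.12, adjusted p = 0.0033). Slc1a5 (ASCT2, a sodium-dependent exchanger of glutamine and other neutral amino acids) read 282 and 234 against 647 and 564, a rise of 1.22 ± 0.19 (adjusted p = 0.0063). Slc3a2 (CD98, the heavy chain that heterodimeric amino acid exchangers need to reach the surface) read 1256 and 1158 against 2267 and 1844 (0.76 ± 0.16, adjusted p = 0.0228). It did not pass without vehicle replicate 1 (adjusted p = 0.15) or vehicle replicate 2 (0.27).

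The amino acid carriers that fell were both sodium-coupled importers. Slc38a2 (SNAT2, which accumulates small neutral amino acids) read 2603 and 2591 in vehicle and 1315 and 1696 in IL-1b, and fell by 0.80 ± 0.17 on the log2 scale (adjusted p = 0.0229). Slc1a3 (GLAST, a glutamate and aspartate importer) read 442 and 429 against 195 and 218, and fell by 1.06 ± 0.19 (adjusted p = 0.0112). A dimmer probe set of Slc1a3 read 120 and 135 against 170 and 97.7 and lay on both sides of the vehicle values (0.02, adjusted p = 0.97). Neither gene passed without vehicle replicate 1 (adjusted p = 0.17 for Slc38a2 and 0.10 for Slc1a3) or without vehicle replicate 2 (0.18 and 0.089). The class had fewer calls with 1 vehicle array left out and more with 1 IL-1b array left out. The same held for all genes with a mean of at least 100.

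**Figure D3:**
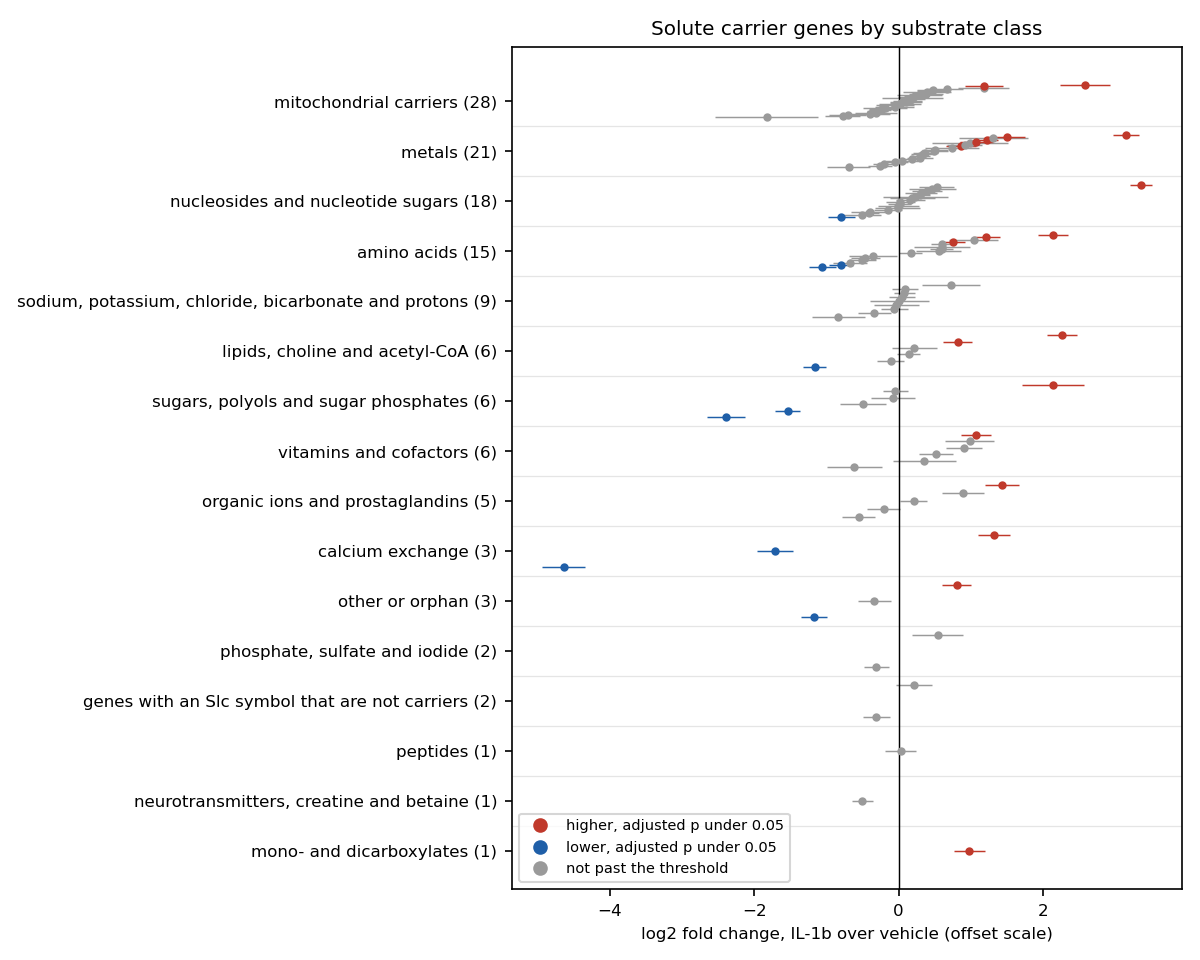
Log2 fold change of IL-1b over vehicle (x axis) for each solute carrier gene, in rows by substrate class with the number of genes in brackets; each point is the brightest probe set of a gene and each bar its standard error. Red points rose, blue points fell and grey points did not pass. All 3 calcium exchangers passed, and none of the 9 carriers of sodium, potassium, chloride, bicarbonate and protons did. Among all genes with a mean of at least 100, 8.57% rose and 9.67% fell.

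Among 6 carriers of lipids, choline and acetyl-CoA, 2 rose and 1 fell. This stands beside 8.57% higher and 9.67% lower among all genes with a mean of at least 100, and counts out of 6 say little. Slc44a1 (CTL1, a choline carrier of the plasma membrane and mitochondria) read 257 and 283 in vehicle and 1603 and 1081 in IL-1b (2.26 ± 0.21, adjusted p = 7.81e-04). Its other probe sets read 87.7 and 71.5 against 323 and 303 (1.91), and 27.1 and 72.5 against 410 and 269 (2.74, adjusted p = 0.01), the value of 27.1 being below the background of that array. All 3 probe sets of Slc44a1 were thus higher on both IL-1b arrays. Its paralogue Slc44a2 read 1015 and 1145 against 443 and 516 and fell by 1.16 ± 0.16 on the log2 scale (adjusted p = 0.0041). Slc33a1, which carries acetyl-CoA into the endoplasmic reticulum, read 456 and 461 against 681 and 975 (0.82 ± 0.20, adjusted p = 0.0394). Its call did not hold without either vehicle array (adjusted p = 0.14 in both cases), and its other probe sets had log2 fold changes of 0.08 and 0.22. Fewer genes of the class passed with 1 vehicle array left out, as among all genes with a mean of at least 100.

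Of 6 carriers of sugars, polyols and sugar phosphates, 1 rose and 2 fell. Among all genes with a mean of at least 100, 8.57% rose and 9.67% fell, and counts out of 6 say little. Slc5a3 (SMIT1, the sodium-coupled importer of myo-inositol, an osmolyte and precursor of inositol lipids) read 552 and 531 in vehicle and 78.4 and 123 in IL-1b, and fell by 2.40 ± 0.26 on the log2 scale (adjusted p = 0.0015). Slc37a4, which brings glucose 6-phosphate into the endoplasmic reticulum, read 766 and 751 against 230.0 and 288, and fell by 1.54 ± 0.18 (adjusted p = 0.0020). Both were lower on both IL-1b arrays. Slc2a6 (GLUT6, a hexose carrier of intracellular membranes) read 44.5 and 29.4 against 224 and 143 (2.14 ± 0.43, adjusted p = 0.0194), and it was a member through the IL-1b arrays alone. The brightest of the class, Slc50a1, a sugar carrier of the SWEET family, read 519 and 524 against 454 and 562 (-0.05, adjusted p = 0.89).

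The mitochondrial carriers were the largest class, with 28 genes, and 2 of them rose. None fell by limma, and at an unadjusted p below 0.05 there were 4 higher and 3 lower, beside the 15.8% and 18.2% of all genes with a mean of at least 100. Slc25a37 (mitoferrin-1, which imports iron into mitochondria for heme and iron-sulfur clusters) read 111 and 73.0 in vehicle and 416 and 772 in IL-1b, a rise of 2.58 ± 0.35 (adjusted p = 0.0037), and was a member only through the IL-1b arrays, its vehicle mean being 92.0. Slc25a10, the dicarboxylate carrier that exchanges malate or succinate for phosphate, read 123 and 117 against 334 and 234 (1.18 ± 0.26, adjusted p = 0.0286). Slc25a10 did not pass without vehicle replicate 1 (adjusted p = 0.074) or vehicle replicate 2 (0.11). The phosphate carrier Slc25a3, the brightest of the class, read 8212 and 8152 against 7230 and 6689 (-0.23, adjusted p = 0.43). The adenine nucleotide carriers Slc25a4 and Slc25a5, named after their values were seen, had log2 fold changes of 0.20 (adjusted p = 0.58) and 0.46 (0.21). Slc25a23, a calcium-dependent carrier of ATP-magnesium and phosphate also named in that way, read 146 and 231 against 110 and 19.1, with the low value on IL-1b replicate 2 alone, and did not pass (-1.83, adjusted p = 0.15). Fewer mitochondrial carriers passed with 1 vehicle array left out, and more with 1 IL-1b array left out. This was so among all genes with a mean of at least 100 as well.

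Slc16a7 (MCT2, which carries pyruvate, lactate and ketone bodies) was the only member for monocarboxylates and rose, with 227 and 214 in vehicle and 381 and 508 in IL-1b (0.98 ± 0.21, adjusted p = 0.0245). It did not pass without vehicle replicate 1 (adjusted p = 0.077) or vehicle replicate 2 (0.12). Of 5 carriers of organic ions and prostaglandins 1 rose, beside 8.57% of all genes with a mean of at least 100, and 1 of 5 says little. Slco3a1, an organic anion transporter of prostaglandins and thyroxine, read 262 and 214 against 531 and 795 (1.43 ± 0.24, adjusted p = 0.0089). Its other probe set moved the same way (1.00, adjusted p = 0.0145). Slco2a1, the prostaglandin uptake carrier, named after its values were seen, read 89.2 and 122 against 181 and 217, which did not pass (0.89, adjusted p = 0.097).

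Of 6 vitamin and cofactor carriers 1 rose, beside 8.57% of all genes with a mean of at least 100, and 1 of 6 says little. The class median was 0.71. Slc19a2, a thiamine carrier, read 153 and 159 in vehicle and 337 and 331 in IL-1b (1.07 ± 0.20, adjusted p = 0.0153). It did not pass without vehicle replicate 1 (adjusted p = 0.10) or vehicle replicate 2 (0.086). Slc23a2, a sodium-coupled vitamin C importer and the brightest of the class, read 223 and 335 against 459 and 582 and did not pass (0.91, adjusted p = 0.0545). More genes of the class passed with 1 IL-1b array left out, as among all genes with a mean of at least 100.

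Among 3 members of less settled function, Slc66a3, of the PQ-loop family, read 3072 and 3100 in vehicle and 1165 and 1588 in IL-1b and fell by 1.18 ± 0.18 on the log2 scale (adjusted p = 0.0065). Slc66a2, of the same family, rose: 236 and 214 against 446 and 351 (0.80 ± 0.21, adjusted p = 0.0464). It did not pass without vehicle replicate 1 (adjusted p = 0.18) or vehicle replicate 2 (0.32). The creatine importer Slc6a8, the sole member of its class, read 737 and 788 against 535 and 536 and did not pass (-0.50, adjusted p = 0.070). Slc15a4, a lysosomal carrier of peptides and histidine, read 237 and 216 against 254 and 210 (0.03, adjusted p = 0.95). Slc20a2, a sodium-phosphate cotransporter, read 390 and 406 against 330 and 311 (-0.31, adjusted p = 0.30). Its other probe set had the opposite sign (0.38) and did not pass either. The 2 genes with an Slc symbol that are not carriers, Slc7a6os and Slc4a1ap, did not pass, and the brighter, Slc7a6os, read 242 and 303 against 383 and 259 (0.22, adjusted p = 0.62).

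Of the 127 genes, 29 had several member probe sets. In 9 of the 29 at least 1 probe set passed, and in 4, Slc11a2, Slc43a2, Slc44a1 and Slco3a1, all of them passed in a single direction. In 0 genes did probe sets pass in both directions, and in 8 genes the probe sets had fold changes of differing sign. Slc1a3 is an example, with one probe set that fell and another at 0.02.

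**Figure D4:**
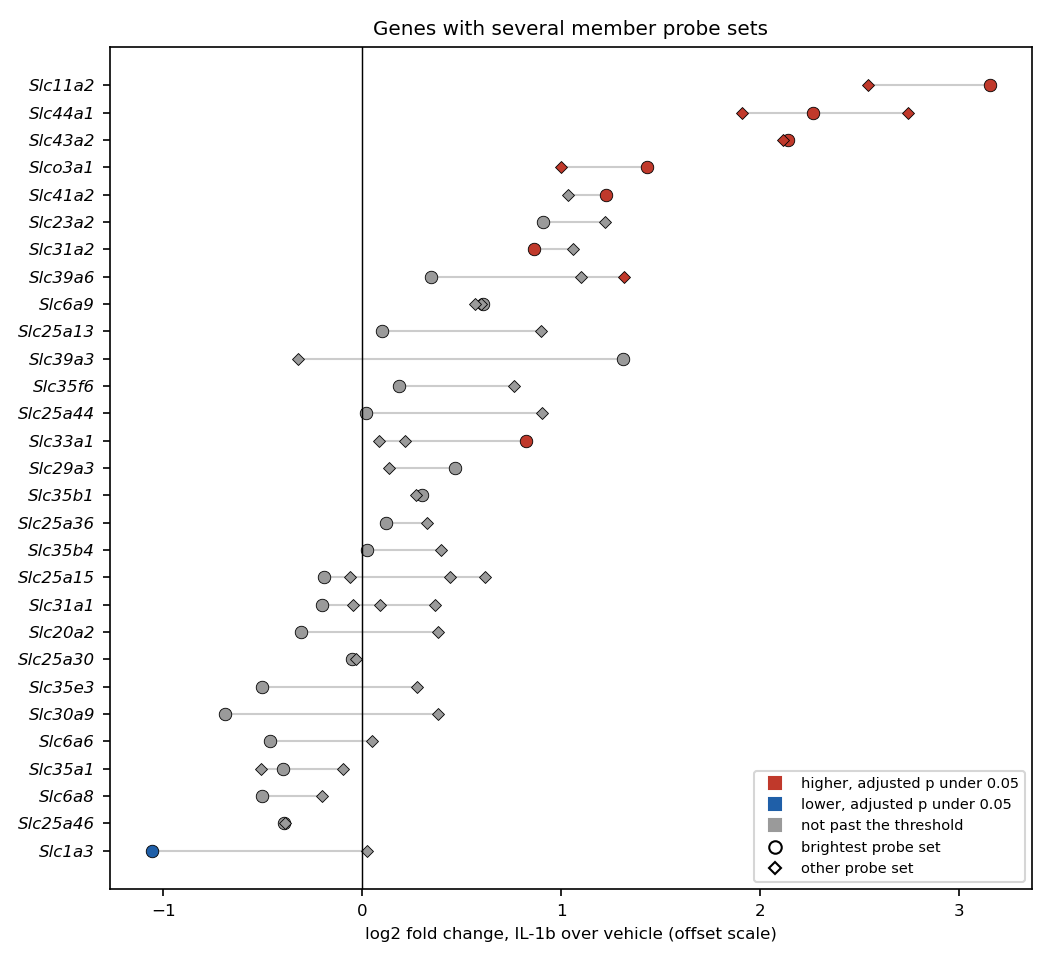
Log2 fold change of IL-1b over vehicle (x axis) of every member probe set of the 29 solute carrier genes (y axis) that had several, with circles for the brightest probe set of a gene and diamonds for the others. Red points rose, blue points fell and grey points did not pass; all probe sets of Slc11a2, Slc43a2, Slc44a1 and Slco3a1 passed, whereas Slc1a3 and Slc33a1 each had a probe set near 0.

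Of 60 transport partners tested in 4 lists, 5 rose and 5 fell (8.33% each), near the 7.24% higher and 8.16% lower of all 10000 genes tested. Of 5 sodium pump subunits and regulators tested, Fxyd5 rose, from 1587 and 1574 in vehicle to 2526 and 2732 in IL-1b (0.73, adjusted p = 0.0153), and Fxyd1 fell, from 342 and 381 to 118 and 185 (-1.25, adjusted p = 0.0239). Both belong to the FXYD proteins, which tune the pump. Of 18 lysosomal proton pump subunits, Atp6v1g1 (949 and 839 against 3911 and 3119, log2 fold change 1.96, adjusted p = 5.0e-04) and Atp6v1b2 (1.09, adjusted p = 0.0082) rose and Atp6v0e2 fell (-1.48, adjusted p = 0.0068), while 15 did not pass. Of 17 carrier chaperones and regulators, Emb, the glycoprotein that brings MCT2 to the surface, rose from 250.5 and 283 to 905 and 974 (1.80, adjusted p = 6.2e-04), and Txnip, which promotes the removal of glucose carriers from the surface, fell from 3136 and 2950 to 918 and 749 (-1.87, adjusted p = 4.6e-04). Of 20 ATP-binding cassette transporters, Abcc1, an exporter of glutathione conjugates and leukotrienes, rose from 254 and 286 to 567 and 627 (1.13, adjusted p = 0.0064). Abcc9, the sulfonylurea receptor of vascular ATP-sensitive potassium channels, fell from 202 and 174 to 56.7 and 41.2 (-1.84, adjusted p = 0.0164), the value of 56.7 being below the background of its array. Abca8a read 196 and 206 in vehicle and was below background on both IL-1b arrays (adjusted p = 0.0061).

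Markers of other cell types differed in level. The endothelial markers Pecam1 and Vwf were below background on all 4 arrays. Of the 7 endothelial markers on the array, however, 2 and 2 exceeded background in vehicle, and 0 and 3 in IL-1b. Those in vehicle were Tek (39.25 and 50.55) and Esam (74.67 and 76.61). The leukocyte marker Ptprc was below background on all but IL-1b replicate 1, where it read 94.9. Of the leukocyte list 3 and 2 markers exceeded background in vehicle, Cd14 and Csf1r on both arrays, and 3 and 4 did so in IL-1b. Of 10 leukocyte markers on the array 2 were tested and neither passed, and the summed intensity of the 10 was 764 and 698 in vehicle and 1097 and 1075 in IL-1b. Most of that sum was Cd14, a lipopolysaccharide co-receptor, at 616 and 578 against 796 and 950.4 (0.54, adjusted p = 0.0719). Of 7 endothelial markers 2 were tested and neither passed, with summed intensities of the 7 of 156.5 and 182 against 314 and 119. Of 3 adventitial fibroblast markers tested, Pdgfra and Dpt rose, and the list summed to 156 and 165 in vehicle and 660 and 566 in IL-1b. The part of any such cells in the values of the solute carriers was not tested.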

How the data were processed

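RNA from 4 samples of cultured rat aortic muscle cells, grouped by the labels into 2 of each treatment, was measured on single-colour Affymetrix rat arrays. The deposited values are intensities on a linear scale, made by the authors with MAS5 per the submitters' processing notes; which version was run, and with which settings, is not stated in those notes. Each array had a trimmed mean intensity of 250.1 (2% trimmed at each end), as MAS5 scaling to a common target leaves. Gene names came from the platform annotation, and all 165 member symbols equalled the current RefSeq symbol by gene ID. The small number of arrays limits the precision.

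From these intensities, log2(intensity + 5.49) was taken, the offset being the 10th percentile of all values. Control probe sets (57) and those with a mean log2 below the 40th percentile (5.37) were left out, which kept 18625 probe sets and all 165 members. The arrays were compared with limma 3.58.1 in R 4.3.3 (lmFit, eBayes with an intensity trend; 2 residual and 4.91 prior degrees of freedom), with Benjamini-Hochberg adjustment over all probe sets tested and a threshold of 0.05. Fold changes are on the log2 scale with the offset and understate those of dim probe sets. The procedure was also run on simulated data with the same spread in both groups and increases only. Such data cannot show how the calls behave with the unequal spread of these groups. Gene counts used the probe set of each gene with the highest mean. Named were, per substrate class, up to 5 genes in each direction with the largest change past the threshold and the brightest gene; up to 4 changes per partner list; and the 3 probe sets on each side of the selection limit. Genes outside that rule are marked. Members, classes and lists were chosen with earlier results of these data known, and Slc7a6os and Slc4a1ap were moved out of the carrier classes after their values were seen. The labels do not say that replicate numbers are shared between groups, and no block was used. Alternatives covered the offset, normalization, filter, variance prior, replicate block, each array left out, the threshold, the selection limit and the probe set of a gene.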

Additional observations from a re-analysis of the deposited data

How the results depend on the processing

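The counts of 19 higher and 9 lower genes (25 and 9 probe sets) stayed within 1.5 times under no offset, a larger offset, quantile normalization, other filters, a robust prior, the 2-fold limit, selection limits of 50 and 200 and, for genes, the mean over a gene's probe sets. Median centring gave 7 higher genes and 11 higher probe sets. Without the intensity trend 5 genes were higher and 4 lower, and 9 probe sets were higher and 4 lower. Those genes were 3.94% and 3.15% of the members, near the 3.35% and 3.09% of all genes with a mean of at least 100. At an adjusted p below 0.01, 9 genes and 12 probe sets were higher. Leaving out 1 array gave 11 to 46 higher and 6 to 29 lower genes, and 16 to 62 higher and 6 to 33 lower probe sets. With the replicate number as a block, the replicate block fit gave 26 higher and 12 lower genes and 34 and 12 probe sets, and all 28 called genes kept their call. Those genes were 20.5% and 9.45% of the members, beside 10.1% and 12.3% of all genes with a mean of at least 100. Same-numbered arrays had deviations correlated at 0.0745 over 2 pairs, which cannot settle whether the numbers pair them. Quantile normalization and the robust prior each lost Slc66a2, and Slc2a6 was not tested under the 60th percentile filter. No called gene reversed, which most of these fits could not have shown. Why the counts moved was not tested. A fit without 1 array left a single array in its group, and its spread came from the other group's pair alone. Over the 165 member probe sets, the median absolute log2 ratio between the arrays of a group was 0.17 in vehicle and 0.39 in IL-1b. With 2 arrays a group and a background of 76.7 on IL-1b replicate 1, 5 member probe sets lay below background on at least 1 array.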
